A study of Mus musculus with 6 samples.

Results

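The nuclear genes of oxidative phosphorylation were taken as the rows of the 6 plate tables whose symbol starts with Nduf, Sdha, Sdhb, Sdhc, Sdhd, Uqcr, Cox4 to Cox8 or Atp5. Pseudogene symbols ending in -ps, with or without a number, were left out. The rule found 97 of 52542 gene rows. By symbol, 38 belong to complex I, 4 to complex II, 8 to complex III, 18 to complex IV and 15 to complex V, which makes 83 genes counted as subunits. Another 12 are assembly factors (Ndufaf and Sdhaf genes), and Atp5s and Atp5sl are not subunits. The symbols place Ndufa4, now assigned to complex IV, and its paralogue Ndufa4l2 in complex I. They also place Cox7a2l, which helps complexes III and IV to assemble with each other, in complex IV. The sums by complex follow the symbols.

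The wells came from islets of Langerhans of male Sox9-CreER; tdTomato mice, in which tamoxifen marks cells of the Sox9 lineage with tomato fluorescence. All groups were given tamoxifen (8 mg), starting at 10 weeks of age, and had surgery at 12 weeks, either by partial pancreatectomy (ppx) or by a sham operation, with islets taken 4 weeks later. Single sorted events were profiled by MARS-seq, a plate method that reads transcripts at their 3′ end and counts each captured molecule once by its unique molecular identifier (UMI), on 3 sham and 3 ppx plates of 384 wells. Plate 1 of each operation held tomato-positive wells, sham plate 2 held positive wells in its first 4 rows and negative wells elsewhere, and sham plate 3 and ppx plates 2 and 3 were tomato-negative. The labels do not map plates to mice, and a well may hold more than 1 cell, since joined beta and delta cells are the subject of the series.

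Wells with at least 500 UMIs and at most 20% mitochondrial UMIs were kept (2115 of 2304). A well was called high in insulin when Ins1 and Ins2 made up at least 3% of its UMIs, in somatostatin (Sst) at 0.7%, and in glucagon (Gcg) or pancreatic polypeptide (Ppy) at 2%. Wells high in 1 hormone alone numbered 992 for insulin, 218 for somatostatin, 125 for glucagon and 61 for polypeptide. Their UMIs were summed per plate wherever a plate had at least 5 such wells, so that the plate is the replicate. This gave 6 insulin-only, 5 somatostatin-only (no ppx plate 2), 4 glucagon-only (no ppx plates 1 and 3) and 5 polypeptide-only sums (no sham plate 1). Markers other than the hormones followed the classes: delta cell genes (Hhex, Rbp4 and Ghsr) summed to at least 4616 CPM in somatostatin-only and at most 927 CPM in the other 3 classes, and alpha cell genes (Ttr, Irx2 and Irx1) to at least 20111 CPM in glucagon-only and at most 2899 CPM in the other 3. The sums held between 9522 UMIs (5 somatostatin-only wells of ppx plate 3) and 1227042 UMIs (insulin-only wells of ppx plate 3). Levels are given as CPM (UMIs of a gene relative to the total of the sum) scaled by TMM, a trimmed mean of ratios that corrects for composition, and are called scaled CPM. They are compared between classes for 1 gene at a time, since transcripts of different genes are captured unequally.

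The mitochondrial electron transport chain passes electrons from NADH (complex I) and succinate (complex II) through complex III to complex IV, where oxygen is reduced. The proton gradient that complexes I, III and IV build drives ATP synthase, complex V. In beta cells, ATP made this way from glucose carbon closes ATP-sensitive potassium channels and so couples glucose to insulin release. Most subunits are encoded in the nucleus, a few core subunits of complexes I, III, IV and V in mitochondrial DNA, and some nuclear subunits exist as isoforms that differ between tissues.

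The transcription factors NRF1, GABPA (of the ETS family) and YY1 are known regulators of nuclear respiratory genes. RefSeq promoter windows on GRCm38.p6, from 250 bases before to 50 after the annotated start, were found for 81 of the 97 genes. The palindromic 10-base NRF1 motif, the capitals in the windows printed with this paragraph, was present in the windows of 7 of the 81 (8.64%), against 1.07% of 27025 genes of the table. The ETS motif CCGGAAG, read on both strands, was present in 21 (25.9%, against 9.93% of genes), and the YY1 motif GCCATNTT, also on both strands, in 21 (25.9%, against 6.96%). The 7 with the NRF1 motif were Atp5g2, Atp5k, Cox6a1, Ndufa11, Ndufaf4, Ndufaf5 and Uqcrc1, so the motif lay at genes of complexes I, III, IV and V and at assembly factors. The motif is shown with the bases around it at 5 of these genes, because of the 3 motifs it had the largest ratio of its share here to its share among all genes. They are written 5′ to 3′ on the strand of the gene, from chr15:102671065-102671104 (minus strand, 42 bases before the start), chr5:108434425-108434464 (minus, 50), chr5:115349096-115349135 (minus, 162), chr17:56717687-56717726 (plus, 60) and chr4:24897955-24897994 (plus, 113).
Atp5g2: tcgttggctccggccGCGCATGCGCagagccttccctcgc
Atp5k: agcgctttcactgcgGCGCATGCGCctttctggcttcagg
Cox6a1: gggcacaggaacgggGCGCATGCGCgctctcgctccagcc
Ndufa11: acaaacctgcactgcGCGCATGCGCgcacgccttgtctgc
Ndufaf4: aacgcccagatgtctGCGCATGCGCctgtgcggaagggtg

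Detection of the 97 genes was broad. In all wells, 89 had more than 25 UMIs, 6 had between 1 and 25 and 2 had none. The kept wells held 114531 UMIs of these genes. The 2 at 0 were Cox6b2 and Cox8c, isoforms known from testis. The 6 rare ones were Atp5g2 (20 UMIs), Cox7a1 (21), Ndufa4l2 (14), Cox7b2 (6), Cox4i2 (2) and Cox8b (1). Atp5g2 is 1 of 3 genes for the c subunit of ATP synthase, and 58.1% of the 31-base sequence words at its 3′ end also occur in another annotated gene. The other rare genes are isoforms or paralogues that other tissues use. Of all isoforms on the tissue list, Cox6a2 alone was common in the islet wells.

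In the median insulin-only well these genes made up 1.51% of UMIs, in the somatostatin-only well 1.45%, in the glucagon-only well 1.30% and in the polypeptide-only well 0.988%. Without hormone UMIs in the total the medians were 1.87%, 1.63%, 1.79% and 1.44%. The classes differed in depth and in RNA quality: the median well held 4237.5, 1530, 3357 and 3371 UMIs in that order, and mitochondrial UMIs made up 9.18%, 12.2%, 6.03% and 5.99%. The part of these differences in the results was not tested.

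Summed over all 97 genes, the level was 13926 ± 915 scaled CPM in insulin-only wells (SD, n = 6 plates), 13286 ± 766 in glucagon-only wells (n = 4), 11811 ± 1157 in somatostatin-only wells (n = 5) and 10986 ± 1255 in polypeptide-only wells (n = 5). Insulin-only and glucagon-only wells differed by less than the spread between plates, and so did the other 2 classes. The order depended on the scaling: without TMM the sums were 14164 ± 1604, 12845 ± 1182, 13929 ± 1460 and 9449.7 ± 1201 CPM in the same order of classes, so that glucagon-only and somatostatin-only wells changed places. With TMM, the order was not the same for each complex. Complex I was highest in insulin-only wells at 5368 ± 438 and lowest in polypeptide-only wells at 3888 ± 791. Complex V was highest in glucagon-only wells at 3679 ± 218, ahead of insulin-only wells at 3443 ± 240, and lowest in somatostatin-only wells at 2798 ± 542. Without TMM complex V was lowest in polypeptide-only wells (2563 ± 293 CPM, against 3297 ± 629 in somatostatin-only wells), and glucagon-only (3559 ± 349) and insulin-only wells (3503 ± 425) were level. Complex III was nearly level between insulin-only (1437 ± 99.9) and somatostatin-only wells (1396 ± 218), and without TMM it was highest in somatostatin-only wells (1635 ± 174 CPM). Complex IV stood at 2836 ± 190, 2579 ± 92.9, 2354 ± 234 and 2219 ± 292 in insulin-, glucagon-, somatostatin- and polypeptide-only wells. This sum includes Cox6a2, which alone stood at 301 ± 27.1, 44.3 ± 46.8, 9.67 ± 11.0 and 17.0 ± 38.0 in that order. The difference in Cox6a2 between insulin-only and glucagon-only wells was as large as that in the complex IV sum. The complex IV order therefore does not describe the other genes of the complex. Complex II, the smallest group, stood at 512 ± 52.8, 484 ± 54.5, 381 ± 53.2 and 449.9 ± 121 in the same order, and its lowest class without TMM was polypeptide-only (391 ± 123 CPM, against 448 ± 59.8 in somatostatin-only wells).

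**Figure D1:**
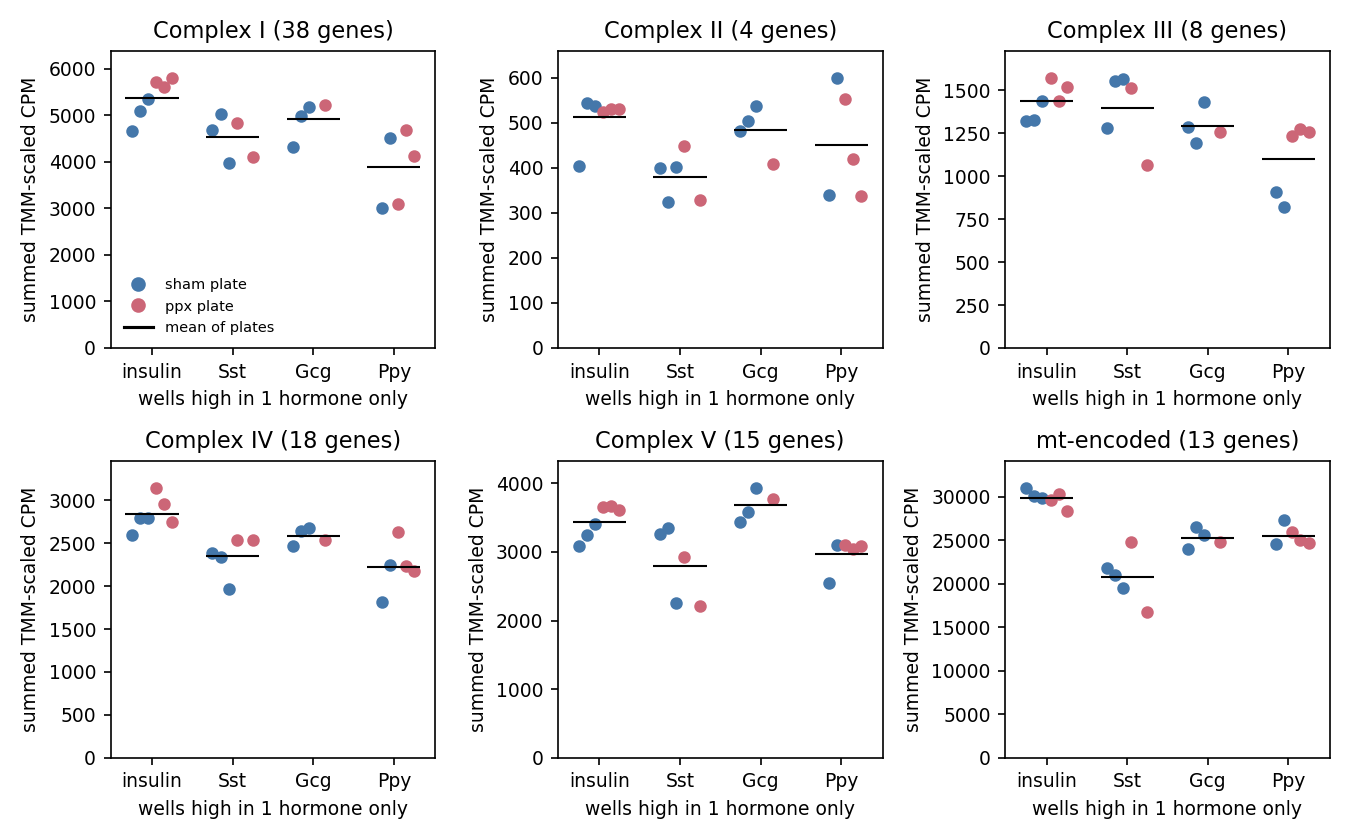
Summed TMM-scaled CPM of the nuclear genes of each complex, and of the 13 mitochondrially encoded genes, in wells high in 1 hormone only. Each point is the sum of 1 plate, coloured by operation, and the line is the mean of plates; complex I is highest in insulin-only wells (mean 5368) and complex V in glucagon-only wells (mean 3679).

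The 13 genes encoded in mitochondrial DNA summed to 29889 ± 885 scaled CPM in insulin-only wells and to 20782 ± 2955 in somatostatin-only wells. Glucagon-only (25230 ± 1048) and polypeptide-only wells (25537 ± 1174) lay between. The mitochondrial sum thus placed somatostatin-only wells lowest, whereas the nuclear sum placed polypeptide-only wells lowest. Without TMM the plate sums of the 13 genes were 30353 ± 2240, 24458 ± 3248, 24366 ± 1454 and 22002 ± 2147 CPM in insulin-, somatostatin-, glucagon- and polypeptide-only wells, so that polypeptide-only wells were lowest in both. Within the insulin-only wells of a plate, the nuclear and the mitochondrial genes were each taken as a share of the non-hormone UMIs. These shares had a Spearman correlation between -0.12 and 0.30 over the 6 plates (18 to 291 wells each). Both shares come from the same library and total, so this describes those wells only.

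Class differences were tested on the sums with edgeR's quasi-likelihood test in 1 model with plate as a block, with Benjamini-Hochberg adjustment over the 1252 genes that passed the count filter. Of the 97 genes, 51 passed it. None of the 12 assembly factors did. Cox6a2 is among the 51 but was known to differ between classes when the genes were chosen. Its levels are therefore given as a description, and its fold changes are not read as a test. The 3 comparisons of insulin-only wells share those wells and are given side by side.

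Against somatostatin-only wells, 38% of all 1252 genes passed the threshold (20.8% higher and 17.2% lower in insulin-only wells). Of the other 50 respiratory genes, 6 were higher in insulin-only wells and 1 was lower, a smaller share than among all genes. Among them were Ndufb8 of complex I, Uqcrq of complex III, Cox6a1 of complex IV, and Atp5o and Atp5b of complex V on the higher side, and Ndufa6 of complex I on the lower. Including Cox6a2, the sums did not overlap for 4 of the 51, against 21.9% of all genes. The median log2 difference over the 51 was 0.08, against 0.03 over all genes. Scaling to library totals without TMM moved the median of all genes from 0.03 to -0.22, and the split then turned from 7 higher and 1 lower, Cox6a2 included, to 2 higher and 4 lower.

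Against glucagon-only wells, 52.2% of all genes passed (25.3% higher, 26.9% lower). Of the 50 respiratory genes 4 were higher (Sdha, Ndufb8 and Uqcrq among them) and 4 were lower in insulin-only wells (Atp5e, Ndufa6, Atp5d and Uqcrh). The sums of 8 of the 51 did not overlap, against 37.2% of all genes. The median was 0.02, against 0.01 for all genes. With the hormone genes left out of the counts, which moved the median of all genes from 0.01 to 0.12, 10 were higher and 2 lower, Cox6a2 included, in place of 5 and 4.

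Against polypeptide-only wells, 31.6% of all genes passed (17.3% higher, 14.4% lower). Of the 50, 8 were higher in insulin-only wells and 0 were lower. Among the 8 were Ndufb9, Ndufa1 and Ndufc2 of complex I, Uqcr11 and Uqcrq of complex III, Cox6c of complex IV and Atp5b of complex V. The sums of 6 of the 51 did not overlap, against 20% of all genes. Here the median of the 51 was 0.31 against 0.03 for all genes, and 39 of the 51 were positive. Somatostatin-only and glucagon-only wells differed in 2 of the 51 genes, Atp5e and Cox6a1, both lower in somatostatin-only wells, against 24.1% of all genes (8.55% higher, 15.6% lower). The sums of 3 of the 51 did not overlap there, against 16.7% of all genes.

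**Figure D2:**
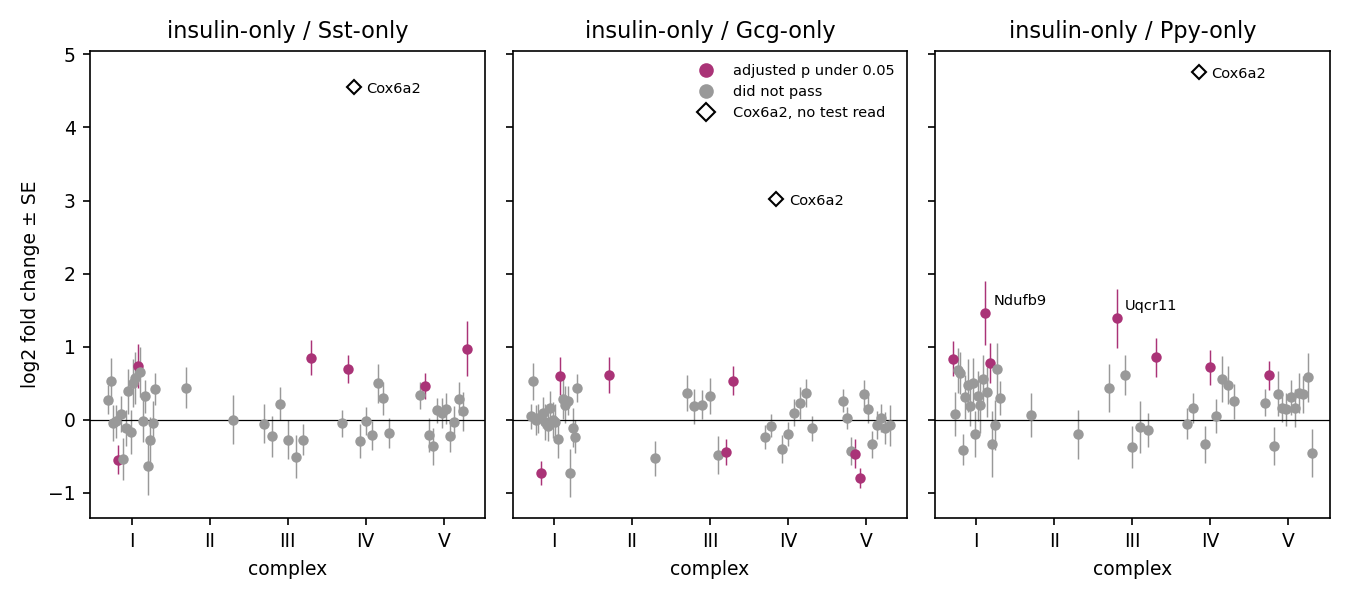
Log2 fold change (insulin-only over each other class, with its standard error) of respiratory genes tested, arranged by complex. Filled coloured points passed an adjusted p of 0.05 in edgeR and grey points did not; the open diamond is Cox6a2, shown without a test, and against polypeptide-only wells Ndufb9 stands at 1.46 and Uqcr11 at 1.39.

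Complex I is the NADH dehydrogenase. Ndufa6, an accessory subunit of the peripheral arm, was lower in insulin-only wells than in glucagon-only wells. It stood at 198, 277 and 308 scaled CPM in insulin-only wells of the sham plates and at 298, 293 and 294 on the ppx plates. Glucagon-only wells held 339.9, 553, 457 and 519, above every insulin-only sum. The log2 difference was -0.73 ± 0.16 (edgeR adjusted p = 9.44e-05), lower in insulin-only wells on 4 of 4 plates and past the threshold in all alternatives run. Against somatostatin-only wells it was -0.55 ± 0.19 (edgeR adjusted p = 0.0197). Those sums overlapped (389, 580.1, 361, 318 and 164), and the call was lost with DESeq2, without the count filter, without sham plate 1 (-0.35; edgeR adjusted p = 0.27) and without sham plate 2 (-0.39; adjusted p = 0.213). Against polypeptide-only wells the difference was -0.41 ± 0.21 and did not pass (edgeR adjusted p = 0.134).

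Of the other complex I genes, Ndufb8, an accessory subunit of the membrane arm, was 0.74 ± 0.30 higher against somatostatin-only wells (edgeR adjusted p = 0.0445) and 0.60 ± 0.26 higher against glucagon-only wells (adjusted p = 0.048). Both calls lay just inside the threshold and the sums overlapped. The first was lost in 11 of 16 alternatives, among them DESeq2 and the fits without TMM and without sham plate 1, ppx plate 1 or ppx plate 3 (0.47 to 0.64; edgeR adjusted p = 0.0914 to 0.337). The other was lost in 7 of 16, among them those without sham plate 1, sham plate 2, ppx plate 1 or ppx plate 3 (0.24 to 0.61; edgeR adjusted p = 0.0518 to 0.581). Ndufb9, also of the membrane arm, was 175 ± 54.7 in insulin-only and 43.9 ± 57.5 in polypeptide-only wells, a log2 difference of 1.46 ± 0.43 (edgeR adjusted p = 0.00594). Ndufa1, a small membrane subunit, was 358 ± 58.0 against 198 ± 64.2 in the same classes, with a log2 difference of 0.83 ± 0.24 (edgeR adjusted p = 0.00433). Ndufc2 was 290.9 ± 60.1 against 157 ± 74.97, with a log2 difference of 0.77 ± 0.28 (edgeR adjusted p = 0.0236). The insulin-only and polypeptide-only sums did not overlap for Ndufa1 and Ndufc2. Even so, Ndufa1 did not pass in 2 of 15 alternatives, without the count filter and without ppx plate 3 (0.58; edgeR adjusted p = 0.0968). Ndufc2 did not pass in 5 of 15, among them those without sham plate 2, ppx plate 1 or ppx plate 2 (0.65 to 0.69; edgeR adjusted p = 0.0824 to 0.133). For Ndufb9 they did, and the call was lost when sums needed at least 10 wells. In all, 21 of the 38 complex I genes were tested. Of these 18 did not pass against somatostatin-only wells, 18 against glucagon-only wells and 17 against polypeptide-only wells.

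Complex II is succinate dehydrogenase, shared with the citric acid cycle, and 2 of its 4 genes were tested. Sdha, the flavoprotein that binds succinate, stood between 166 and 193 scaled CPM in the 6 insulin-only sums. In glucagon-only wells it stood at 143, 134 and 119 on the sham plates and at 54.6 on ppx plate 2, below every insulin-only sum. The log2 difference was 0.62 ± 0.25 (edgeR adjusted p = 0.0299), and it did not pass in 6 of 16 alternatives, among them those without sham plate 2, sham plate 3 or ppx plate 2 (0.57 to 0.69; adjusted p = 0.0569 to 0.125). It did not pass against somatostatin-only wells (0.44 ± 0.28; edgeR adjusted p = 0.22). Sdhd, a membrane anchor subunit, was -0.53 ± 0.24 against glucagon-only wells and did not pass (edgeR adjusted p = 0.0611).

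Complex III passes electrons from ubiquinol to cytochrome c, and 7 of its 8 genes were tested. Uqcrq, a small subunit near the membrane domain, stood at 324, 224 and 307 scaled CPM in the insulin-only wells of the sham plates and at 274, 306 and 362 on the ppx plates. In polypeptide-only wells it was 169.9 and 126 on sham plates 2 and 3 and 169.9, 186 and 193 on the ppx plates. These groups did not overlap, and the log2 difference was 0.85 ± 0.26 (edgeR adjusted p = 0.00833). Against somatostatin-only wells (153 ± 69.4) it was 0.85 ± 0.24 (adjusted p = 0.00297), and against glucagon-only wells (182 ± 66.1) 0.53 ± 0.20 (adjusted p = 0.0197). In these last 2 the sums overlapped, although Uqcrq was higher in insulin-only wells on every plate that held both classes. The difference from polypeptide-only wells did not pass without the count filter or when sums needed at least 10 wells (adjusted p = 0.1 and 0.102 in edgeR), nor that from somatostatin-only wells without TMM (0.59; edgeR adjusted p = 0.0581). The difference from glucagon-only wells did not pass without the count filter (edgeR adjusted p = 0.166), without sham plate 1 (0.37; edgeR adjusted p = 0.135) or sham plate 3 (0.52; adjusted p = 0.112). Uqcr11, another small subunit, was 168 ± 12.3 in insulin-only wells and 52.1 ± 48.3 in polypeptide-only wells (log2 difference 1.39 ± 0.40; edgeR adjusted p = 0.00455). It was listed at 0 on 2 of the 5 polypeptide-only sums, and the call was lost when sums needed at least 10 wells (1.08; edgeR adjusted p = 0.142). Uqcrh, the hinge protein next to cytochrome c1, was lower in insulin-only wells (240.3 ± 38.9) than in glucagon-only wells (291 ± 57.9), with a log2 difference of -0.44 ± 0.18 (edgeR adjusted p = 0.0309) and sums that overlapped. Uqcrh was not called in 7 of 16 alternatives, among them DESeq2 and the fits without TMM, without sham plate 2 (-0.41; edgeR adjusted p = 0.166) and without sham plate 3 (-0.26; adjusted p = 0.408).

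Complex IV is cytochrome c oxidase. Its subunit VIa has 2 isoform genes: Cox6a1, expressed in most tissues, and Cox6a2, known as the isoform of heart and skeletal muscle. Both were present in insulin-only wells. Cox6a2 stood at 252, 311 and 306 scaled CPM in the insulin-only wells of the sham plates and at 334, 309 and 297 on the ppx plates, a mean of 301 ± 27.1 (SD, n = 6). In somatostatin-only wells it stood at 5.64, 23.2 and 0 on the sham plates and at 19.5 and 0 on ppx plates 1 and 3, which rest on 5 UMIs in all. In glucagon-only wells it was 0, 24.3 and 43.8 on the sham plates and 109 on ppx plate 2 (0, 4, 7 and 4 UMIs). Among the polypeptide-only sums only that of ppx plate 1 held any, with 2 UMIs (85.0 scaled CPM). The lowest insulin-only sum was thus above the highest sum of every other class. The sums of the other 3 classes overlapped each other and rest on too few UMIs to rank these classes.

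**Figure D3:**
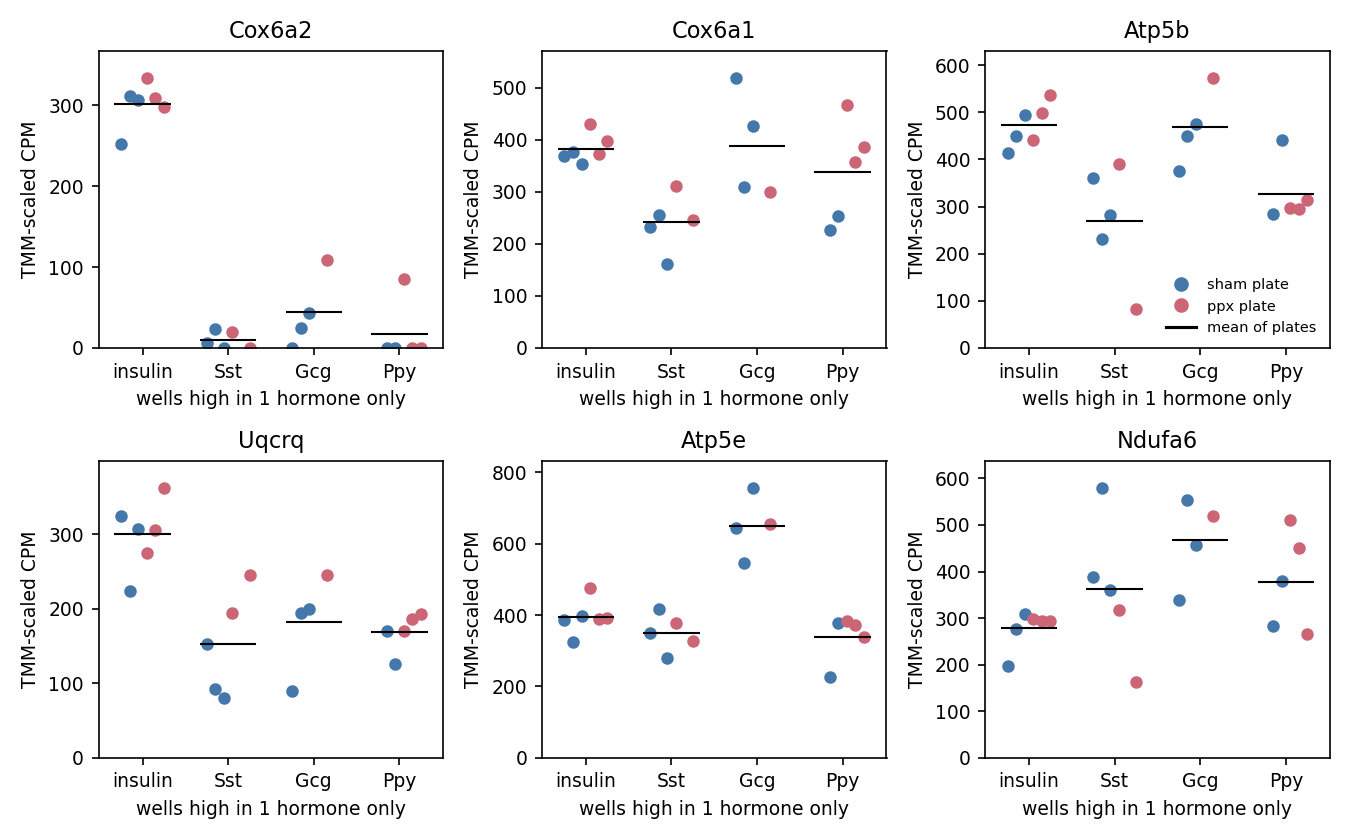
Levels of 6 genes in wells high in 1 hormone only, as TMM-scaled CPM per plate, coloured by operation, with the mean of plates as a line. Cox6a2 lies between 252 and 334 in insulin-only sums and at or below 109 elsewhere, whereas Cox6a1 is present in all classes and Atp5e is highest in glucagon-only wells.

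Cox6a2 was next counted per well at equal depth. With each well thinned to 1000 UMIs, 24.3% of insulin-only wells (238 of 980; 95% exact Clopper-Pearson interval 21.6 to 27.1%) had a Cox6a2 UMI. Only 0.513% of somatostatin-only wells did (1 of 195; interval 0.013 to 2.82%), and 4.88% of glucagon-only wells (6 of 123; 1.81 to 10.3%). Polypeptide-only wells gave 0 of 60, where the interval reaches 5.96%. Wells high in both insulin and somatostatin lay between, at 14.6% (23 of 157; 9.52 to 21.2%), and hormone-low wells gave 1 of 51 (1.96%). These intervals cover counting error only. The shares pool plates of different tomato sorts. Before thinning, sham plate 1 and ppx plate 1, both tomato-positive, held 93 and 82 of the 218 somatostatin-only wells. They held 21 and 18 of the 992 insulin-only wells. The part of the sort in these shares was not tested. Without thinning, 59.5% of insulin-only wells had a UMI, and 1.83% of somatostatin-only wells did, at median depths of 4237.5 and 1530 UMIs. Over the single plates the thinned share of insulin-only wells ran from 9.52% (2 of 21 wells, sham plate 1) to 38.9% (7 of 18 wells, ppx plate 1), the 2 plates with the fewest such wells.

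**Figure D4:**
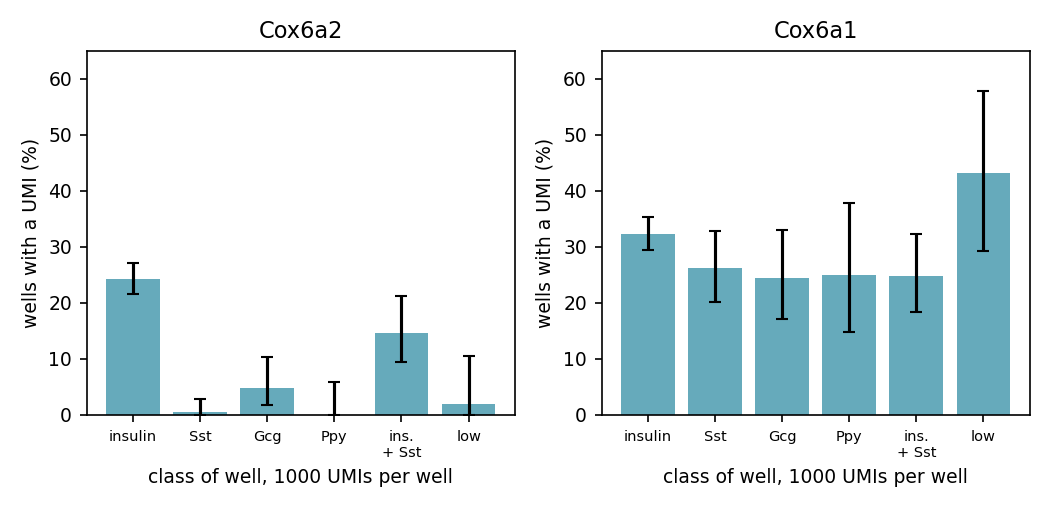
Share of wells with at least 1 UMI of Cox6a2 and Cox6a1 after thinning each well to 1000 UMIs, by class of well (low is hormone-low). Bars are shares over all plates and lines are exact 95% intervals; Cox6a2 reaches 24.3% in insulin-only wells and 0.513% in somatostatin-only wells, and Cox6a1 is seen in every class.

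Free RNA from beta cells can give UMIs in other wells, so Cox6a2 was set against the insulin genes. It had 16.6 UMIs per 10000 insulin UMIs in insulin-only wells, 22.7 in somatostatin-only wells (5 UMIs), 85.2 in glucagon-only wells (15 UMIs), 35.0 in all polypeptide-only wells (3 UMIs) and 7.89 in wells high in both insulin and somatostatin (180 UMIs). The ratio was thus not the same in all classes, and other beta cell genes also differed between classes. In glucagon-only wells, however, Cox6a2 had the largest rise relative to insulin-only wells among the beta cell genes compared. Nearest to it were Nkx6-1 (32.3 in insulin-only and 119 in glucagon-only wells) and Pdx1 (7.30 and 28.4). In the same order of classes, Slc2a2 stood at 31.4, 59.1, 51.1, 46.6 and 17.6, and Mafa at 43.3, 27.3, 34.1, 35.0 and 21.3. The classes are defined by insulin itself, and several of these ratios rest on few UMIs. The part of free RNA was not tested. Beta cell markers other than the hormones and Iapp (Ucn3, Mafa, Slc2a2, G6pc2, Nkx6-1 and Pdx1) summed to between 4923 and 7340 CPM in insulin-only wells, with all 6 seen on every plate. They summed to 267 to 735 CPM in somatostatin-only, 154 to 414 in glucagon-only and 171 to 406 in polypeptide-only wells. Muscle markers (Ckm, Acta1, Myh6, Tnnc1 and Actc1) summed to at most 8.68 CPM in any insulin-only sum. The annotation places Cox6a2 at chr7:128205435-128206387 on the minus strand, where its 3′ end overlaps Itgad on the opposite strand.

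Cox6a1, the widespread isoform, stood at 369, 375 and 353 scaled CPM in the insulin-only wells of the sham plates and at 429, 372 and 397 on the ppx plates. In somatostatin-only wells it stood at 231, 255 and 161 on the sham plates and at 312 and 246 on ppx plates 1 and 3, all below the insulin-only sums. The log2 difference was 0.69 ± 0.19 (edgeR adjusted p = 0.00289), lost when TMM was not applied (0.44; edgeR adjusted p = 0.098). Glucagon-only wells held 519, 310.0, 426 and 300.3. They did not differ detectably from insulin-only wells, and somatostatin-only wells were lower than glucagon-only wells by a log2 difference of -0.77 ± 0.23 (edgeR adjusted p = 0.00639). That call was lost without sham plate 1 (-0.61; edgeR adjusted p = 0.126), without sham plate 3 (-0.57; adjusted p = 0.139), without the count filter (-0.77; adjusted p = 0.106) and without TMM (-0.46; adjusted p = 0.183). Somatostatin-only wells thus had the lower level of Cox6a1 as well as almost no Cox6a2 UMIs. Of the 270 short sequence words of 31 bases at the 3′ end of Cox6a1, 19.6% also occur in another annotated gene, so part of its reads may have been left uncounted or shared.

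The promoters of Cox6a1 and of the complex V gene Atp5e, which differ in the motifs they hold, are shown because both genes differed between somatostatin-only and glucagon-only wells. Each is the 250 bases before the RefSeq start on GRCm38.p6, 5′ to 3′ on the minus strand, from chr5:115348959-115349208 and chr2:174464102-174464351. Capitals mark the NRF1 motif, found in Cox6a1 only, and CTTCCGG, the ETS motif read on the opposite strand, found in both. A match in these letters is a description and does not show binding.
Cox6a1: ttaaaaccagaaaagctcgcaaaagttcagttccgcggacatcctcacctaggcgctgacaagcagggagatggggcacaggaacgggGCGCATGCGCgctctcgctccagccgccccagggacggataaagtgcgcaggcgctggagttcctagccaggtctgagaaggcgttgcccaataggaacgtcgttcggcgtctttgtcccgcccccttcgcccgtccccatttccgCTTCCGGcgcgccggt
Atp5e: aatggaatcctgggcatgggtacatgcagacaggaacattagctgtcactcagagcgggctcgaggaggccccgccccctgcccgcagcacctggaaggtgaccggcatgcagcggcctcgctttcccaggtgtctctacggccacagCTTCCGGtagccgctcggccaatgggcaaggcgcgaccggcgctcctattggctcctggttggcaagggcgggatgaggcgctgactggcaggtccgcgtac

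The other complex IV genes showed few differences. Cox6c, a small membrane subunit, was 362 ± 56.8 in insulin-only and 201 ± 83.1 in polypeptide-only wells (log2 difference 0.72 ± 0.24; edgeR adjusted p = 0.0153). Its sums overlapped, 40.8% of its 3′ words also occur in Cox6c2, and the call was lost in 5 of 15 alternatives, without the count filter, when sums needed at least 10 wells and without sham plate 2, ppx plate 1 or ppx plate 2 (0.59 to 0.73; edgeR adjusted p = 0.0571 to 0.0766). The remaining 6 complex IV genes tested did not pass in any of the 4 class comparisons. Among these were Cox4i1, Cox6b1, Cox7a2l and Cox7b. Cox5a was below the count filter. Without the filter its log2 difference between insulin-only and somatostatin-only wells was 1.93 ± 0.51 (edgeR adjusted p = 0.00672), and 13.3% of its 3′ words occur in another gene.

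Complex V is ATP synthase, and 12 of its 15 genes were tested. Atp5e, the epsilon subunit of the central stalk, was highest in glucagon-only wells. It stood there at 644, 547 and 757 scaled CPM on the sham plates and at 655 on ppx plate 2. In insulin-only wells it was 387, 326 and 399 after sham and 477, 389 and 391 after ppx, and in somatostatin-only wells 349.8, 418, 281, 377 and 328. Neither class reached the lowest glucagon-only sum. The log2 difference was -0.80 ± 0.14 for insulin-only against glucagon-only wells (edgeR adjusted p = 8.84e-07; lower on 4 of 4 plates). It was -0.93 ± 0.19 for somatostatin-only against glucagon-only wells (edgeR adjusted p = 8.65e-05; lower on 3 of 3 plates). Both passed the threshold in all alternatives run.

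Atp5d, the delta subunit of the same stalk, was also lower in insulin-only than in glucagon-only wells (169 ± 28.3 against 221 ± 34.4; log2 difference -0.46 ± 0.20; edgeR adjusted p = 0.0486). That call held in only 4 of 16 alternatives, and was lost without sham plate 2, sham plate 3, ppx plate 1 or ppx plate 2 (-0.48 to -0.36; edgeR adjusted p = 0.0546 to 0.324). Atp5b, the catalytic beta subunit, stood at 472 ± 44.9 in insulin-only, 269 ± 122 in somatostatin-only and 326 ± 65.7 in polypeptide-only wells. Its log2 difference was 0.46 ± 0.18 against somatostatin-only wells (edgeR adjusted p = 0.0331) and 0.61 ± 0.20 against polypeptide-only wells (adjusted p = 0.0147). The first was lost in 7 of 16 alternatives, among them those without TMM and without sham plate 2, sham plate 3 or ppx plate 3 (0.36 to 0.38 without these plates; edgeR adjusted p = 0.103 to 0.205). The other was lost in 3 of 15, without the count filter, without ppx plate 2 (0.53; edgeR adjusted p = 0.122) and without ppx plate 3 (0.56; adjusted p = 0.0596). Glucagon-only wells held 469 ± 81.6 of Atp5b, the same level as insulin-only wells within the spread. Atp5o, the subunit of the peripheral stalk that confers oligomycin sensitivity, was 118 ± 37.0 in insulin-only and 67.3 ± 24.9 in somatostatin-only wells (log2 difference 0.97 ± 0.37; edgeR adjusted p = 0.0319). The sums overlapped, and the call was lost in 8 of 14 alternatives, among them DESeq2 and the fits without TMM, without sham plate 2 (0.77; edgeR adjusted p = 0.162) and without sham plate 3 (0.97; adjusted p = 0.0639). Of its 3′ words, 54.5% also lie in Donson, which overlaps it on the same strand, so Atp5o is uncertain. The catalytic and stalk genes of complex V thus did not share 1 order of classes.

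Other genes of the pathway were taken from fixed lists, and their calls are given for the main fit only. Of all 1252 genes, 38%, 52.2% and 31.6% passed against somatostatin-, glucagon- and polypeptide-only wells. Of the 13 mitochondrially encoded genes, 6 were tested between classes. Against somatostatin-only wells 5 were higher in insulin-only wells, led by mt-Nd2 (0.62 ± 0.13; edgeR adjusted p = 5.06e-05) and mt-Nd5 (0.62 ± 0.13; adjusted p = 3.92e-05). Against glucagon-only wells 2 were higher, mt-Cytb (0.43 ± 0.17) and mt-Co1 (0.29 ± 0.12), and against polypeptide-only wells 1, mt-Nd2 (0.39 ± 0.13). Among cytochromes, carriers and coupling genes, 7 of 14 were tested. Against somatostatin-only wells 2 were lower in insulin-only wells, against glucagon-only wells 4 were lower, and against polypeptide-only wells 1 was higher and 1 lower. Ucp2, an inner membrane carrier of the uncoupling protein family, was lower in insulin-only wells in each of these comparisons, by log2 differences of -1.51 ± 0.19, -0.99 ± 0.17 and -0.82 ± 0.23 against somatostatin-, glucagon- and polypeptide-only wells (edgeR adjusted p = 8.05e-10, 1.66e-06 and 0.00308). Atpif1, the inhibitor of ATP synthase, was lower than in somatostatin-only wells (-0.66 ± 0.19; adjusted p = 0.0035) and than in glucagon-only wells (-0.45 ± 0.17; adjusted p = 0.0232).

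Of the 16 citric acid cycle and pyruvate genes 5 were tested. Fumarase, Fh1, was higher in insulin-only wells than in glucagon-only (1.09 ± 0.33; edgeR adjusted p = 0.00429) and polypeptide-only wells (1.51 ± 0.48; adjusted p = 0.00984). The other 4 did not pass. Of the 4 assembly genes of complexes III and IV tested, Uqcc2 was higher than in somatostatin-only (0.67 ± 0.20; edgeR adjusted p = 0.00508) and polypeptide-only wells (1.16 ± 0.25; adjusted p = 0.000129). Coa3 was higher than in glucagon-only wells (0.70 ± 0.25; adjusted p = 0.0168). Of 3 glycolytic genes tested, Aldoa and Pkm were higher than in glucagon-only and polypeptide-only wells, by 0.66 ± 0.18 and 0.47 ± 0.17 and by 0.99 ± 0.25 and 0.96 ± 0.23. No regulator on the list, such as Ppargc1a or Nrf1, passed the count filter.

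The operation was compared next, in the insulin-only wells of 3 ppx and 3 sham plates. No respiratory gene passed the threshold. Of the 97 genes 86 were tested among 8158, and 0 of the 86 were called by edgeR, against 0.392% of all genes (21 higher, 11 lower). At an unadjusted p under 0.05 there were 8 of the 86, against 760 of all 8158, and DESeq2 called 0. The sums of sham and ppx did not overlap for 19 of the 86 (13 higher, 6 lower after ppx), against 14.4% of all genes. The median log2 difference was 0.07, with 53 genes positive and 33 negative, against a median of -0.05 over all genes.

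Atp5g1 and Ndufa1 were among the 3 genes with the smallest p, and in both the ppx plates lay above the sham plates. Atp5g1, a gene for the c subunit of the ATP synthase ring, stood at 63.0, 65.8 and 70.6 scaled CPM on sham plates 1 to 3 and at 95.4, 100.3 and 120.3 on ppx plates 1 to 3. Its log2 difference was 0.69 ± 0.18 (edgeR adjusted p = 0.111; 0.0384 to 1.00 over the alternatives). It passed only when TMM was not applied (0.80; edgeR adjusted p = 0.0384). Of its 3′ words, 44.1% occur in another annotated gene.

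Ndufa1 stood at 315, 313 and 296 on the sham and at 393, 393 and 439.7 on the ppx plates (0.43 ± 0.13; edgeR adjusted p = 0.197). On the tomato-positive plates alone the log2 ratio of ppx to sham was 0.60 for Atp5g1 and 0.32 for Ndufa1. On the tomato-negative plates it was 0.64 and 0.49. Both were positive in both sorts, and 1 positive plate per operation gives no replicate. For Cox6a1 and Cox6a2 the ratios were 0.22 and 0.40 on the positive and 0.12 and -0.01 on the negative plates.

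**Figure D5:**
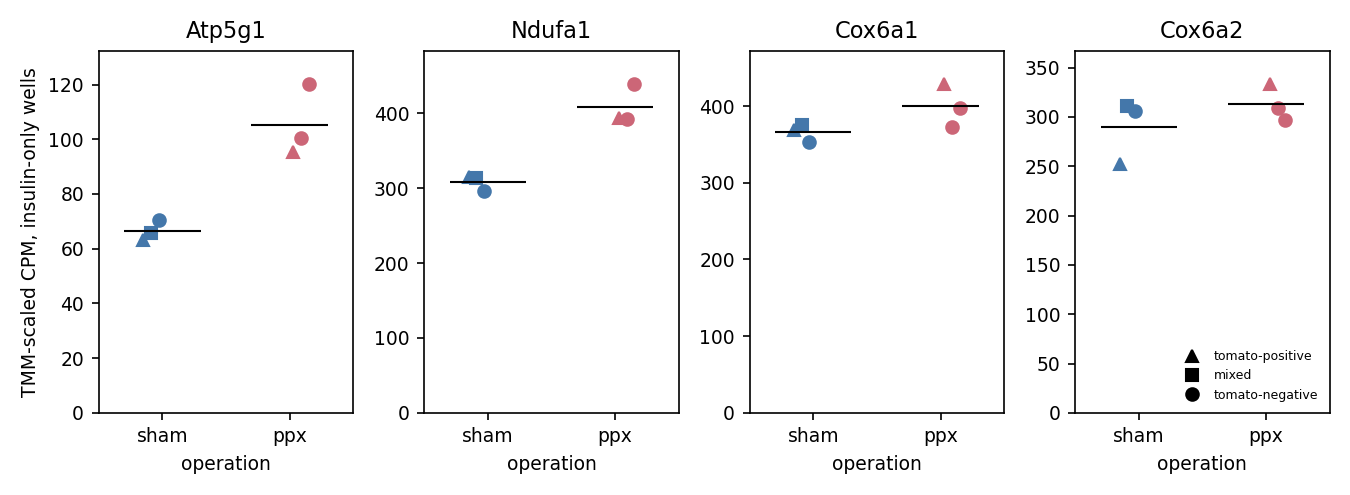
TMM-scaled CPM of 4 genes in the insulin-only wells of each plate, by operation, with the marker shape giving the tomato sort and the line the mean of 3 plates. The ppx plates lie above the sham plates for Atp5g1 (95.4 to 120.3 against 63.0 to 70.6) and Ndufa1, neither of which passed the adjusted threshold, and overlap for Cox6a1 and Cox6a2.

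Among the next smallest p-values, Ndufb9 (0.42 ± 0.15), Atp5g3 (0.34 ± 0.14), Ndufa8 (0.48 ± 0.20) and Sdhb (0.44 ± 0.20) were positive and Cox7a2l (-0.34 ± 0.14) was negative. Their edgeR adjusted p-values lay between 0.336 and 0.488. The sign of Ndufa8 turned with the sort, with a log2 ratio of -0.47 on the tomato-positive and 0.50 on the tomato-negative plates, and that of the other 4 did not. Sdhb, the iron-sulfur subunit of complex II, was 18.0 on sham plate 1 and 90.1 and 84.4 on the others, against 95.4, 118 and 105 on the ppx plates. The lowest of these values came from the plate with 21 insulin-only wells. Cox7a2l, which helps complexes III and IV to assemble with each other, stood at 207, 188 and 201 on the sham and at 179, 152 and 154 on the ppx plates.

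Summed by complex in insulin-only wells, complex I was 5027 ± 348 on sham and 5710 ± 93.9 on ppx plates (SD, n = 3 each), and complex V 3244 ± 158 and 3641 ± 26.0. Neither sum overlapped between operations with TMM, and both did without it (complex I 5004 ± 449.8 and 5925 ± 666 CPM, complex V 3228 ± 219 and 3778 ± 421). Complex III was 1364 ± 65.1 and 1511 ± 67.9, complex IV 2724 ± 113 and 2948 ± 199.96, and complex II 496 ± 78.5 and 529 ± 3.52. The mitochondrially encoded genes went the other way in the mean, from 30320 ± 654 to 29458 ± 986, and overlapped. The share of UMIs taken by hormones moved as well: its median over insulin-only wells was 26.7%, 23.4% and 25.7% after sham, against 32.3%, 16.1% and 14.9% after ppx. Its part in the complex sums was not tested. None of the genes on the fixed lists of other pathway genes passed between operations, the smallest adjusted p being that of Usmg5, an ATP synthase membrane subunit (0.44 ± 0.14; edgeR adjusted p = 0.204).

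The operation was not tested in polypeptide-only wells, which had 2 sham and 3 ppx sums. There complex III was 864 ± 59.9 scaled CPM on sham and 1254 ± 20.9 on ppx plates, without overlap. The sums of complexes I, II, IV and V overlapped between operations in that class. In somatostatin-only and glucagon-only wells the operation could be tested in few genes. In somatostatin-only wells (3 sham, 2 ppx plates) 25 of 448 tested genes were respiratory. Of these 0 passed in edgeR or DESeq2 and 0 had an unadjusted p under 0.05, against 0% called and 11 of all genes with such a p. The smallest p belonged to Ndufc2 (0.67 ± 0.42), Ndufa6 (-0.54 ± 0.35) and Atp5j (-0.57 ± 0.41), each at an edgeR adjusted p of 0.992. In glucagon-only wells a single ppx sum of 12 wells stood against 3 sham plates, and the lone sum is assumed to vary like the others, so these values have no replicate check on the ppx side. Of 66 genes tested 0 passed in edgeR or DESeq2, against 0.329% of all genes (0.0939% higher, 0.235% lower), and 2 had an unadjusted p under 0.05. These were Ndufb11 (-2.43 ± 0.75; edgeR adjusted p = 0.248) and Ndufb10 (1.42 ± 0.53; adjusted p = 0.549), accessory subunits of the membrane arm of complex I. Cox6b1 came next (-1.07 ± 0.59; adjusted p = 0.745).

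Whether the operation acted differently on insulin-only and somatostatin-only wells was tested by the class-by-operation term of a model blocked by plate. Of the 70 respiratory genes tested 0 passed in edgeR or DESeq2, against 0.034% of all genes, and 3 had an unadjusted p under 0.05: Uqcrfs1 (1.66 ± 0.64), Ndufb9 (1.56 ± 0.73) and Ndufa3 (1.48 ± 0.74). Each had an edgeR adjusted p of 0.995.

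Within a class most respiratory genes varied from well to well with a variance near the mean, as Poisson counts do. In insulin-only wells thinned to 1000 UMIs, the median ratio of variance to mean lay between 1.01 and 1.05 for the 68 to 71 respiratory genes seen often enough, on the 4 plates with over 100 such wells. Over all genes the median lay between 1.00 and 1.04, so such a ratio is not particular to respiratory genes at this depth. Cox6a2 was higher, at 1.31, 1.32, 1.23 and 1.12 on sham plates 2 and 3 and ppx plates 2 and 3. Ins2 on the same plates stood at 3.64, 4.10, 2.19 and 1.82. The highest respiratory gene on each of these plates lay above Cox6a2, at 1.37, 1.47, 1.29 and 1.23. The ratio of Ins2 was above all of these. At a given relative spread the ratio rises with the mean count, and insulin UMIs far outnumber those of Cox6a2. Over insulin-only wells Ins1 and Ins2 together stood at 194330 CPM and Cox6a2 at 322 CPM. The ratios therefore do not rank these genes by relative variation.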

How the data were processed

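MARS-seq UMIs of islet wells were analysed from 6 plate tables, 1 per plate, with 1 column per well. The authors deposited whole-number UMI counts without normalisation. Alignment used HISAT 0.1.6 on mm10, per the submitters' processing notes. How UMIs were assigned to genes is not given in the sources used here. Spike-in (ERCC) rows, 92 per table, were left out.

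Wells with fewer than 500 UMIs (96) or over 20% mitochondrial UMIs (93) were removed, and 0 well names were shared between plates. Doublets were not removed because the series is about joined cells. Counts were summed per class and plate and tested with edgeR 4.0.16 (R 4.3.3; TMM computed once over all sums, filterByExpr, quasi-likelihood F test), calling genes at a Benjamini-Hochberg adjusted p under 0.05. Classes were compared with plate as a block, operations without one, and their difference as an interaction. Alternatives were DESeq2 1.42.0, other scalings, filters, thresholds and blocks, and each plate left out. Thinning and intervals used Python 3.11.15 with numpy 2.4.6 and scipy 1.17.1. The test scripts were tested on simulated data.

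A few genes of the set and of the marker lists are counted but not reported here by name. Members and lists were chosen with earlier results of these data known, including Atp5g1 and Cox6a2. The text names per comparison up to 12 called members per direction, or where none passed the 3 with the smallest p, and members of the pathway lists past the threshold. The next members by p in the insulin-only operation comparison, Cox5a and the plate values of Cox6a1, Sdhd and Sdhb were added after their values were seen. Gene positions are GENCODE vM21 on GRCm38. Plates are the replicates, and nothing in the labels says they came from separate mice. P-values between operations within a class measure the spread between plates, which may be technical. Those between classes, and those of the class-by-operation term, come from fits blocked by plate. They measure how far the class difference varies from plate to plate, which may also be technical. Sums rest on few UMIs in small classes: 1 UMI in the smallest sum is a scaled CPM of 81.9.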

Additional observations from a re-analysis of the deposited data

Results flagged for a closer look

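Ndufa4l2, a paralogue of a subunit now assigned to complex IV, lay outside the class comparisons because hormone-low wells enter none of them. It had 10 UMIs in the 109 hormone-low wells (64.7 CPM), against 1 UMI in insulin-only wells (0.226 CPM), 1 in somatostatin-only wells (2.85 CPM) and 1 in wells high in both insulin and somatostatin (0.988 CPM). Glucagon-only and polypeptide-only wells had none. The 10 UMIs came from 5 wells on 4 plates: 1, 5, 2 and 2 UMIs on sham plates 2 and 3 and ppx plates 2 and 3. All 5 wells also held Rgs5, a gene known from pericytes, with 52 UMIs, and 4 held Sparc (24 UMIs). Of the collagen genes, Col3a1 was seen in 3 of the 5 wells (5 UMIs), Col1a2 in 2 (3 UMIs) and Col1a1 in none. Of the 104 hormone-low wells without Ndufa4l2, 20 held Rgs5 (88 UMIs) and 65 held Sparc (305 UMIs). Col3a1 was seen in 4 of these 104 wells, Col1a2 in 5 and Col1a1 in 2. Of the endothelial genes, Plvap (3 UMIs) and Kdr (2 UMIs) were each seen in 1 of the 5 wells and Pecam1 and Cdh5 in none. The duct gene Krt19 and the macrophage gene Cd74 were at 0 there. This was seen after the fact in few wells and was not tested.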

How the results depend on the processing

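Counts of respiratory genes past the threshold, Cox6a2 included, were compared with the reported 8, 9, 2 and 9 (insulin-only against somatostatin-, glucagon-only, somatostatin- against glucagon-only, insulin- against polypeptide-only). Without the count filter, which tests 94 of the 97 genes, they were 5, 4, 1 and 4. DESeq2 gave 5 in the first. Requiring 10 wells per sum gave 4 in the last, and scaling without TMM gave 24, all higher, as the median of all genes moved to 0.34. Counting wells high in Sst and Ppy as somatostatin-only, an alternative chosen after seeing the data, gave 17 against glucagon-only wells, 8 of them shared with the 9. Leaving out 1 plate gave 5 to 8, 5 to 11, 1 to 2 and 7 to 9; the lowest values were 5 without sham plate 2 against somatostatin-only wells, and without sham plate 3 the values were 5 and 1 in the 2 comparisons with glucagon-only wells. Without TMM, somatostatin- against glucagon-only wells had 1 higher and 1 lower gene in place of 0 and 2. Atp5e (2 comparisons) and Ndufa6 (against glucagon-only wells) passed in all alternatives run. Between operations, insulin-only wells gave 1 gene without TMM, Atp5g1, and 0 otherwise; the other operation comparisons gave 0 in all run, with or without any 1 plate. The share of insulin-only wells with Cox6a2 was 59.5% without thinning and 24.7% with doubled thresholds.

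With the replicate number as a block (replicate block), 0 respiratory genes passed in insulin-only and 0 in somatostatin-only wells, and the count over all genes went from 32 to 50 and from 0 to 1. In insulin-only wells, same-numbered plates correlated at 0.016, 0.024 and 0.005. Ppx plate 3 correlated better with sham plate 2 (0.019), and every other plate correlated best with its own number. All these values were very small, so they cannot decide whether the numbers pair the plates. This fit and the tomato covariate could not be made in glucagon-only wells with 1 ppx sum, and the polypeptide comparison was not run with Ppy left out. Depth limits the classes with few wells: only 51 of 97 genes could be tested between classes and 25 between operations in somatostatin-only wells.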
